A study of Caenorhabditis elegans with 2 samples.

Results

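The microRNA genes of Caenorhabditis elegans were examined for binding by the tagged protein SNPC-4 in L4 larvae, the last larval stage. They were taken as every gene of biotype miRNA or pre_miRNA in the Ensembl annotation of WBcel235, the assembly whose coordinates are those of ce11, and any that overlapped an snRNA, snoRNA or tRNA gene were to be left out. No gene met that exclusion, so all 261 microRNA genes were kept, out of 46890 annotated genes on the 6 nuclear chromosomes. The gene named mir-1831 was not among them, because the annotation gives it the biotype snRNA. It lies inside the snRNA gene sup-39 on chromosome II (6968530 to 6968551, minus strand), and the summit that both share had a signal of 184, rank 52. Of the members, 106 lay wholly inside a protein-coding gene, here called the host, and 152 lay outside all protein-coding genes. The remaining 3 (let-7, mir-242 and mir-356.1) overlapped one in part.

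Chromatin immunoprecipitation followed by sequencing was done on whole larvae, males and females pooled, of strain OP179, genotype unc-119(ed3) III; wgIs179. The insertion wgIs179 is an integrated transgene that carries eGFP-tagged snpc-4, and the unc-119 mutation is shared by every animal. The labels name neither the promoter of the transgene nor the cells that express it. The 2 samples form 1 group and are labelled as biological replicates 1 and 2, and no input or untagged control was analysed here. With a single group there was no comparison of conditions, no test and no p-value. ChIP-seq of whole animals holds no expression values, so the tissue could not be checked against marker genes.

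MicroRNAs are short RNAs that guide Argonaute proteins to complementary messenger RNAs, mainly through the seed near their 5′ end. Most microRNA genes are transcribed by RNA polymerase II into long primary transcripts, which Drosha and Dicer cut to a hairpin and then to the mature strand. Some hairpins lie in introns, and a class called mirtrons has hairpin ends set by splicing. SNPC-4 is the worm counterpart of a subunit of SNAPc, the complex that binds the promoters of small nuclear RNA genes, and in worms it is also known to occupy the loci of 21U-RNAs. The annotated 5′ end of most microRNA genes is the end of the hairpin and not the start of the primary transcript, so distances below are distances from the hairpin for all but 7 members, whose annotated gene is longer than the hairpin.

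The stretches of 130 bases just upstream of the hairpin are shown because the summits lie in or next to them. They are given for the 4 microRNA genes with a summit within 300 bp in the thresholded list and for mir-52, the strongest outside it. They were read 5′ to 3′ on the strand of the gene from the RefSeq genome of WBcel235 (ce11). The positions are chrIII:7278585-7278714, plus strand for mir-2214; chrX:2328908-2329037, plus strand for mir-8196.1; chrX:14324471-14324600, minus strand for mir-8196.2; chrX:9989152-9989281, plus strand for mir-49; and chrIV:14033878-14034007, plus strand for mir-52. Capitals mark the 6 letters TATAAA on either strand and the overlapping 8-mers GCGGAACC and CGGAACCC described further on.
mir-2214: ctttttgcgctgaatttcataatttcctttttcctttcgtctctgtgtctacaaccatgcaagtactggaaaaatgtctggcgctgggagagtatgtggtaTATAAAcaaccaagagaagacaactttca
mir-8196.1: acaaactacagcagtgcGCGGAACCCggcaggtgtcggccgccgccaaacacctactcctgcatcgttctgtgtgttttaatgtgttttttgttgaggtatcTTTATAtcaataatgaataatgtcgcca
mir-8196.2: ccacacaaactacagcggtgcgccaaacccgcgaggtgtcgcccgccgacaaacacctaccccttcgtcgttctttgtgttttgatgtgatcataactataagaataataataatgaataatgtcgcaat
mir-49: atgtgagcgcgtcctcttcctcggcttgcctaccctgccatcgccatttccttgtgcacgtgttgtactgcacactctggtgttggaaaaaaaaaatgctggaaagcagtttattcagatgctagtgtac
mir-52: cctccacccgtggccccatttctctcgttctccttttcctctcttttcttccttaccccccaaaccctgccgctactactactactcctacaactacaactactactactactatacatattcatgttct

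The mature strands of the same genes, and of mir-84 from the let-7 family, are shown because their seeds tell which other microRNAs can pair with the same targets. They were read from the same genome at the coordinates of the Ensembl mature transcripts, and capitals mark the seed, bases 2 to 8.
mir-2214-5p: aUUCGGUCcggagucaauggg
mir-2214-3p: cAUUGACAacaacuugaccggcguu
mir-8196.1-5p: cCCCAUAGaaauauuuucuauguc
mir-8196.2-5p: cCCAUAGAaauauuuucuauguc
mir-49-3p: aAGCACCAcgagaagcugcaga
mir-52-5p: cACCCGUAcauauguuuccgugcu
mir-84-5p: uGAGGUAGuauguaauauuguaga

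No other microRNA gene had either seed of mir-2214. The 5p strands of mir-8196.1 and mir-8196.2 are the same sequence shifted by a single base in the annotation, so that their annotated seeds differ. The 3p seed of mir-49 was shared with mir-83 alone, and that of mir-52-5p with mir-51, mir-53, mir-54, mir-55 and mir-56. The mir-84 seed is that of let-7, mir-241, mir-48 and mir-795. Across the whole class there were 458 annotated mature sequences in 260 genes, with 374 distinct seeds, of which 46 occurred in more than 1 gene.

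Few microRNA genes were among the strongly bound sites. In the authors' list thresholded by irreproducible discovery rate (IDR), which scores agreement between replicates, 4 of 261 microRNA genes had a summit within 300 bp of the 5′ end: mir-2214, mir-8196.1, mir-8196.2 and mir-49. That is 1.53% (exact Clopper-Pearson 95% interval 0.419 to 3.88), against 0.874% of all annotated genes, 0.661% of protein-coding genes and 11.8% of snoRNA genes (8.64 to 15.7). In the 1000 bp upstream of the 5′ end, 5 of 261 had a summit, or 1.92% (0.625 to 4.41), against 1.06% of all annotated genes. Both shares of all genes fell inside the interval of the microRNA genes. The IDR list holds 381 peaks with a signal of 21.4 to 1230 and a median of 31.7. These are identical to the 381 strongest of the 30000 entries in the authors' list for the pooled replicates. By its label the pooled list holds peaks and background as input for IDR, with signals down to 3.27. A pooled summit weaker than the IDR peaks is therefore not by itself evidence of binding. Signal is the authors' value per peak on a scale that the labels and files do not state, so it is compared only within a list, and read depth is unknown. Intervals on shares cover the counting of genes only.

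The strongest was mir-2214, whose hairpin (WBGene00194828; chromosome III, 7278715 to 7278778, plus strand) lies in an intron of the same-strand protein-coding gene B0361.11. Its peak had a signal of 344 in the replicate 1 list and 190 in the replicate 2 list, and 535 in the pooled list. Those values were rank 11 in replicate 1, rank 28 in replicate 2 and rank 16 in the pooled list, so the peak was near the top of each. The summits of the replicates were 57 and 56 bp upstream of the hairpin, and the pooled summit was 58 bp upstream. The 5′ end of the host was 1058 bp upstream of the pooled summit. The 5′ end of B0361.13, a non-coding RNA gene annotated on the other strand, was 126 bp away, so the summit also lies within the window of that gene.

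The pair mir-8196.1 and mir-8196.2 came next. Of the first (WBGene00220055; chromosome X, 2328994 to 2329124, plus strand), which lies outside protein-coding genes, the peak had a signal of 50.5 in replicate 1, 75.9 in replicate 2 and 129 in the pooled list. Its rank was 61 in replicate 1, 60 in replicate 2 and 61 in the pooled list, the closest match between replicates among the 10 microRNA genes with the strongest pooled summits within 300 bp. The second (WBGene00219810; chromosome X, 14324355 to 14324517, minus strand) lies in an intron of prx-1, which is on the opposite strand and encodes a worm counterpart of a peroxisome biogenesis factor. Its peak had a signal of 10.5 (rank 291) in replicate 1, 23.7 (rank 152) in replicate 2 and 35.2 (rank 163) in the pooled list. The pooled summits lay 37 bp upstream of the annotated 5′ end of mir-8196.1 and 68 bp upstream of that of mir-8196.2. No other annotated gene had its 5′ end within 1500 bp of either summit.

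Both loci resemble each other in sequence. Aligned globally, the hairpins matched at 62 of 67 columns (92.5%) and the 130 bases upstream, shown above, at 101 of 135 columns (74.8%). This alignment was made after the peaks at both genes had been seen. Since the upstream stretches differ at 24 mismatched and 10 gapped columns, they are not identical copies, but how reads that match both places were handled is not stated in the labels or files.

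The weakest of the 4 was mir-49 (WBGene00003277; chromosome X, 9989282 to 9989378, plus strand), which lies outside protein-coding genes. Its signal was 23.3 (rank 159) in replicate 2 and 23.9 (rank 305) in the pooled list, with the summit 170 bp upstream in both. Replicate 1 had no summit within 300 bp, so a place in the IDR list does not by itself show a peak in both replicate lists. The pooled interval ended 1 bp before the hairpin. No other annotated gene began within 1500 bp of the summit.

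**Figure D1:**
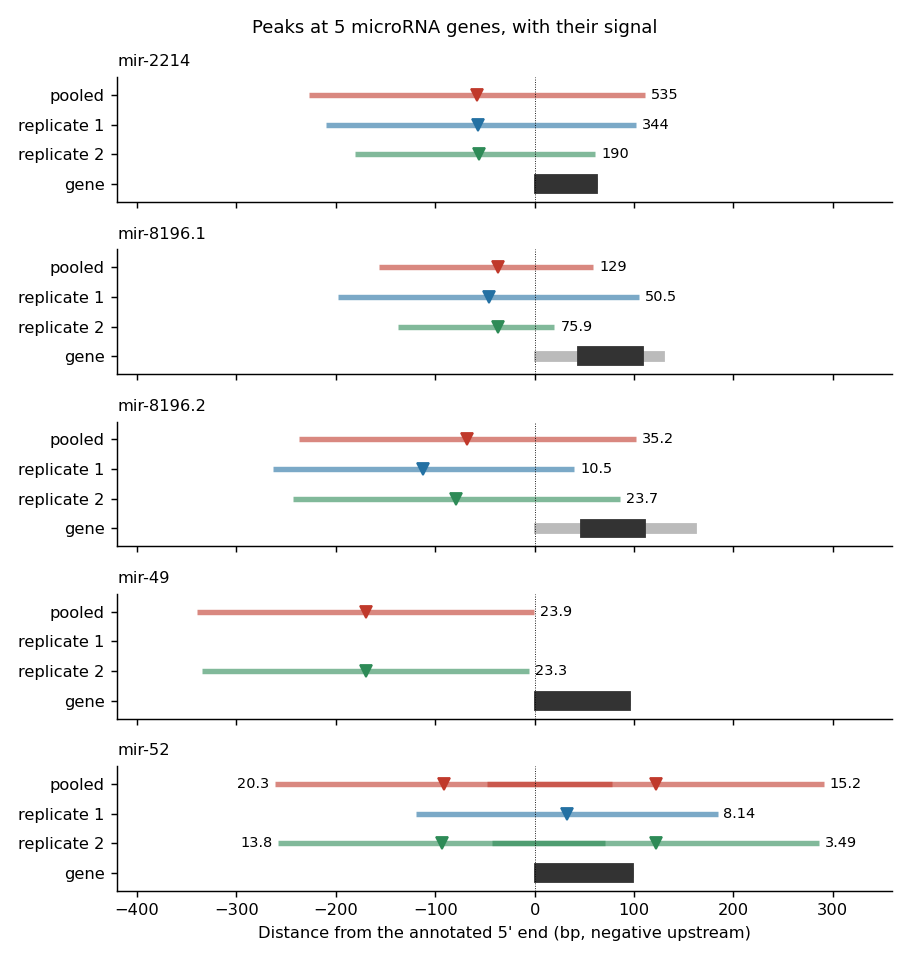
Peaks at the 4 microRNA genes of the IDR list and at mir-52, as distance in bp from the annotated 5′ end on the strand of the gene. Bars are peak intervals, triangles are summits, numbers are the signal of each peak within its own list, black boxes are hairpins and grey boxes the rest of the annotated gene; mir-49 has no peak in replicate 1.

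Just outside the IDR list, whose weakest peak has a signal of 21.4, stood mir-52, mir-5549 and mir-4929. The gene mir-52 (WBGene00003280; chromosome IV, 14034008 to 14034107, plus strand) belongs to the mir-51 family, which is needed in the embryo. It had 2 pooled peaks, with summits 91 bp upstream (signal 20.3, rank 425) and 122 bp downstream (15.2, rank 774) of the 5′ end. Replicate 2 had the same pair of summits within 2 bp, with signals of 13.8 (rank 437) and 3.49 (rank 17864). In replicate 1 there was a single summit, 33 bp downstream, with a signal of 8.14 (rank 453), between the other positions. The 5′ ends of several annotated non-coding RNA genes lie near the upstream pooled summit, one of them, on the other strand, at 51 bp.

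The gene mir-5549 on chromosome III had a pooled signal of 17.1 (rank 603) with its summit 7 bp inside the hairpin, 4.78 (rank 1657) in replicate 1 and 10.7 (rank 802) in replicate 2. The same summit was 175 bp upstream of rfc-4, which encodes a replication factor C subunit, and 366 bp upstream of eef-1A.1, which encodes a translation elongation factor, so the 5′ end of rfc-4 lies within 300 bp of it as well. The gene mir-4929 on chromosome II had a pooled signal of 15.4 (rank 746) at 203 bp upstream and 12.4 (rank 559) in replicate 2. Replicate 1 had no summit within 300 bp of it, and its nearest peak there lay 361 bp upstream with a signal of 3.28 (rank 4288). Then came mir-5595 (11.1, rank 1603), mir-84 (9.87, rank 2217) and mir-1829.3 (9.40, rank 2575) in the pooled list. The summit at mir-1829.3 was also 262 bp from the 5′ end of a tRNA gene, F39B1.t1. In replicate 2 the summit (5.90, rank 5213) lay 274 bp downstream of the 5′ end of mir-1829.3, at position 15236149. That position is inside F39B1.t1 (15236124 to 15236196), and replicate 1 had no summit within 300 bp.

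Beyond 300 bp the IDR list added mir-354 (WBGene00014612; chromosome I), which overlaps an exon of rps-20, the gene of a small ribosomal subunit protein, on the same strand. Its peak had a signal of 11.3 (rank 253) in replicate 1, 18.0 (rank 239) in replicate 2 and 27.8 (rank 224) in the pooled list. The summit was 827 bp upstream of mir-354 but 215 bp upstream of the 5′ end of rps-20 and 182 bp from that of ekl-4, on the opposite strand. The summit was thus nearer to the 5′ ends of those protein-coding genes than to the hairpin. Wider windows added a gene each: mir-1824 (25.6, rank 267, summit 426 bp downstream) within 500 bp, and let-7 (22.2, rank 347) with a summit 1837 bp upstream within 2000 bp.

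In the pooled list, the share of microRNA genes with a summit near the 5′ end was close to that of all genes, and the share further upstream was higher. There, 68 of 261 microRNA genes (26.1%, interval 20.8 to 31.8) had a summit within 300 bp, against 23.7% of all annotated genes, 23.4% of protein-coding genes and 48.8% of snoRNA genes. In the 1000 bp upstream the count was 110 (42.1%, 36.1 to 48.4), against 31.8% of all annotated genes and 31.2% of protein-coding genes. In all, 125 had a pooled summit in one window or the other, and 136 had none. The either-window share of all annotated genes was not computed, so these counts cannot be read against it. A window chosen after these values were seen, over 300 and up to 1000 bp upstream, held a pooled summit at 73 microRNA genes (28.0%, 22.6 to 33.8), against 21.9% of all annotated genes and 20.2% of protein-coding genes. The same window gave 14.6% (10.5 to 19.4) against 12.5% in replicate 1 and 28.7% (23.3 to 34.6) against 18.6% in replicate 2. In replicate 1 the share of all genes lay inside the interval of the microRNA genes. The share of protein-coding genes lay below the interval in each replicate, at 9.17% in replicate 1 and 19.6% in replicate 2. With replicate 2 cut to the 11042 peaks of the replicate 1 list, a comparison added after these values were seen, its share in that window was 12.6% (8.87 to 17.3), against 7.52% of all annotated genes.

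The replicate lists were also read alone. Replicate 1 had a summit within 300 bp of 34 microRNA genes (13.0%, 9.19 to 17.7), against 13.6% of all annotated genes, and in the 1000 bp upstream of 59 (22.6%, 17.7 to 28.2), against 19.1%. Replicate 2 had 64 (24.5%, 19.4 to 30.2), against 20.1%, and 106 (40.6%, 34.6 to 46.8), against 27.1%. The replicate lists differ in length, with 11042 peaks for replicate 1 and 30000 for replicate 2, so these shares cannot be set against each other. Cut to 11042 peaks, replicate 2 had 37 genes within 300 bp (14.2%, 10.2 to 19.0), against 9.23% of all annotated genes, and 55 in the 1000 bp upstream (21.1%, 16.3 to 26.5), against 11.9%. At that length the intervals of replicate 2 lay above the share of all genes in both windows. In replicate 1 the share of all genes within 300 bp lay inside the interval, and so did that in the 1000 bp upstream. Protein-coding genes there had 10.6% within 300 bp, inside the interval, but 15.5% in the 1000 bp upstream, below it. In the full replicate 2 list protein-coding genes had 22.5% within 300 bp, inside the interval, and 29.9% in the 1000 bp upstream, below it. All annotated genes include 15363 21U-RNA genes, with 17.8% and 27.6% in replicate 1 and 10.5% and 19.7% in the full replicate 2 list.

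Shares by strength ran close together near the 5′ end. Among the strongest 1000 pooled peaks, 7 microRNA genes had a summit within 300 bp (2.68%, 1.08 to 5.45), against 1.92% of all annotated genes. Among the strongest 3000 it was 10 (3.83%, 1.85 to 6.93), against 4.35%, and among the strongest 11042 it was 33 (12.6%, 8.87 to 17.3), against 11.0%. In the 1000 bp upstream the share was 2.68% at 1000 peaks (1.08 to 5.45), against 2.46% of all annotated genes. It was 9.20% (24 genes, 5.98 to 13.4) at 3000, against 5.66%, and 22.2% (58 genes, 17.3 to 27.8) at 11042, against 14.5%. In that window the intervals from 3000 peaks on lay above the share of all genes, but at 3000 peaks the interval held the share of protein-coding genes, 6.75%. The snoRNA genes stood above both at each depth, with 24.3% (19.9 to 29.1) within 300 bp at 3000 peaks.

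**Figure D2:**
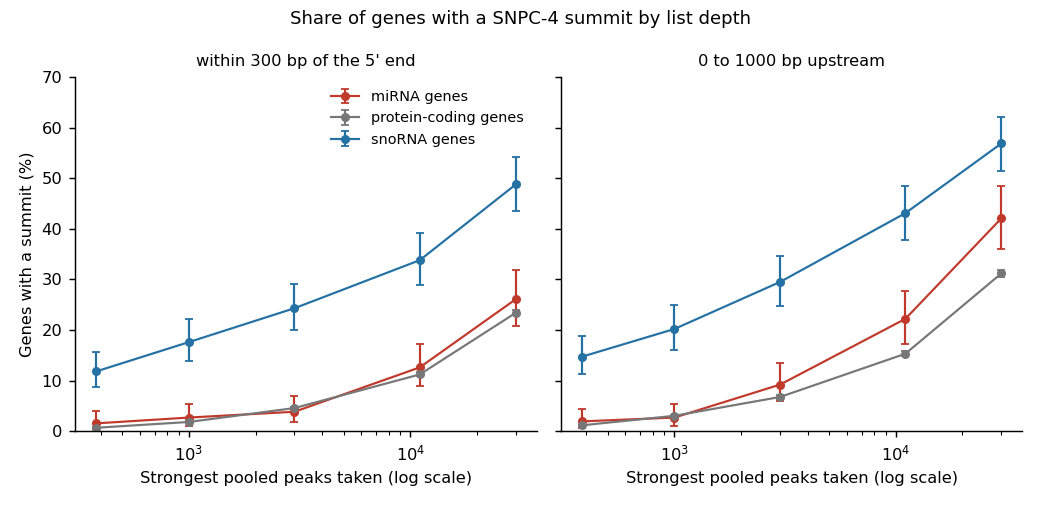
Share of microRNA, protein-coding and snoRNA genes with a summit (%, with exact 95% intervals over genes) against the number of strongest pooled peaks taken (log scale), for summits within 300 bp of the 5′ end on the left and 0 to 1000 bp upstream on the right. On the right the microRNA genes reach 9.20% at 3000 peaks and 42.1% at 30000, where the protein-coding genes have 6.75% and 31.2%; at 3000 peaks the microRNA interval (5.98 to 13.4) contains the protein-coding share.

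Most of the microRNA genes with a pooled summit had weak peaks. The strongest pooled summit within 300 bp had a median signal of 5.56 over the 68 genes (3.31 to 535), against 5.40 over the 11122 genes of all kinds with one, 5.48 for protein-coding genes and 8.72 for snoRNA genes. These 68 genes had 65 distinct summits. For 43 of the genes the summit was upstream of the 5′ end and for 25 downstream, and for 25 it lay within 100 bp. The median was 37 bp upstream, against 32 bp for protein-coding genes and 3 bp for all annotated genes. The 5′ end of a protein-coding gene lay within 300 bp of the summit for 8 of the 68 genes, and that of a tRNA or snoRNA gene for 2 of them, mir-1829.3 and mir-77. In the 1000 bp upstream, 110 genes had 95 distinct summits, and 16 of the genes had a summit near the 5′ end of a protein-coding gene.

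**Figure D3:**
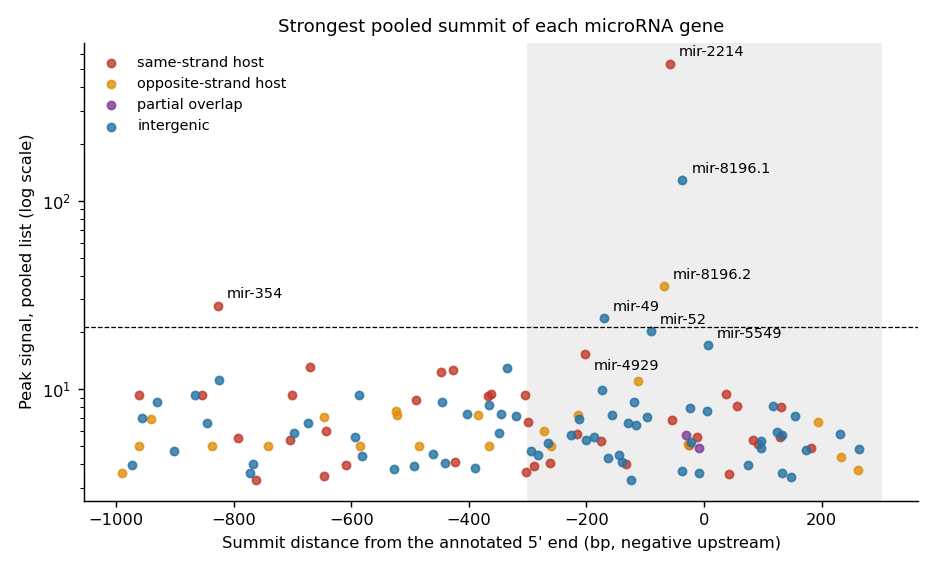
Signal (log scale) of the pooled summit of each microRNA gene against its distance from the annotated 5′ end, coloured by the location of the gene. Genes with a summit within 300 bp (grey band) are shown by the strongest of those, the others by their strongest summit in the 1000 bp upstream; the dashed line is the weakest IDR peak (21.4), and mir-2214, mir-8196.1, mir-8196.2, mir-49 and mir-354 alone lie above it.

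Near the 5′ end, the shares of genes inside a host and of intergenic genes each lay within the interval of the other. Within 300 bp, 28 of 106 microRNA genes inside protein-coding genes had a pooled summit (26.4%, 18.3 to 35.9), and 38 of 152 intergenic ones (25.0%, 18.3 to 32.7). For all other non-coding genes, inside and intergenic, the same shares were 26.1% and 23.9%. These other non-coding genes take in the 15363 21U-RNA genes, of which 19.7% had such a summit. By strand, 19 of 74 with a same-strand host (25.7%, 16.2 to 37.2) and 9 of 32 with an opposite-strand host (28.1%, 13.7 to 46.7) had a summit, against 27.8% and 24.7% of other non-coding genes in those places. Of the 4 genes of the IDR list, 2 were inside and 2 intergenic, which is 1.89% (0.229 to 6.65) and 1.32% (0.160 to 4.67).

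In the 1000 bp upstream the shares stood further apart, though their intervals overlapped. Of the genes inside hosts, 54 of 106 had a pooled summit (50.9%, 41.0 to 60.8), and of the intergenic genes 54 of 152 (35.5%, 27.9 to 43.7). Other non-coding genes had 36.2% inside and 31.1% intergenic, and the 21U-RNA genes among them had 32.4% in all places together. The share was 34 of 74 (45.9%, 34.3 to 57.9) with a same-strand host, against 37.5% of other non-coding genes so placed. It was 20 of 32 (62.5%, 43.7 to 78.9) with an opposite-strand host, against 35.2%. Those 20 genes shared 12 distinct summits, and 7 of them were the mir-35 cluster with 1 summit. With 5′ ends within 1000 bp on the same strand counted as a single unit, the share was 46.7% inside and 38.6% intergenic. At equal list length, the share inside was 22.6% in replicate 1 and 25.5% in replicate 2, and the intergenic share 22.4% in replicate 1 and 18.4% in replicate 2. Replicate 1 thus did not show the gap. For 8 of the 34 genes with a same-strand host, the summit was within 300 bp of the 5′ end of that host.

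**Figure D4:**
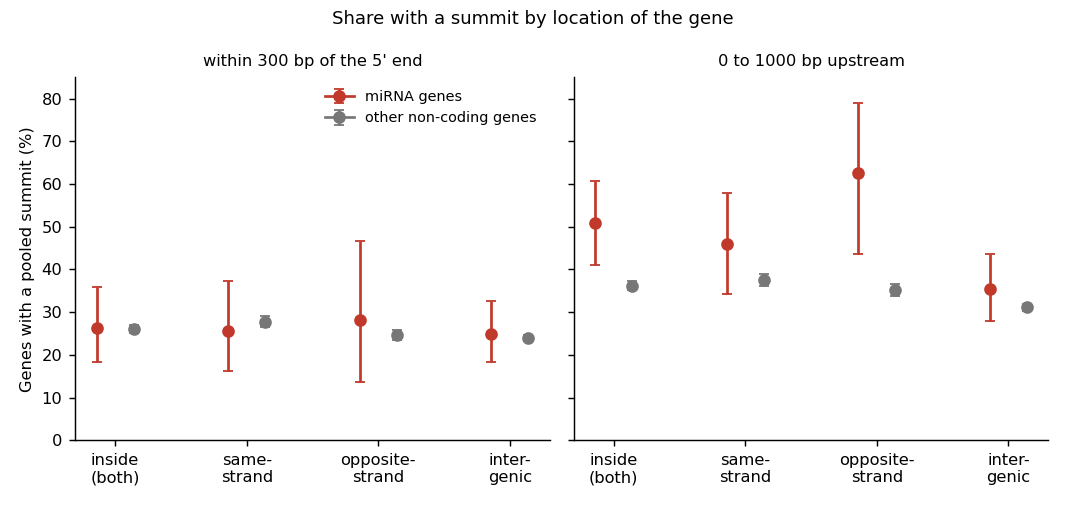
Share of genes with a pooled summit (%, with exact 95% intervals over genes) by location, for microRNA genes and for all other non-coding genes placed the same way, within 300 bp of the 5′ end on the left and 0 to 1000 bp upstream on the right. On the right the microRNA genes inside hosts stand at 50.9% and the intergenic ones at 35.5%.

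Of the members inside hosts, 97 lay in introns and 9 overlapped exons. Mirtron-like hairpins, here those with both ends within 5 bp of the ends of an intron, numbered 8: mir-62, mir-1019, mir-1020, mir-4916, mir-4920, mir-4924, mir-4926 and mir-4927. None had an IDR summit. Of the 8, 4 had a pooled summit within 300 bp (exact interval 15.7% to 84.3%) and 3 one in the 1000 bp upstream (8.52% to 75.5%), and the shares of all annotated genes, 23.7% and 31.8%, lie inside those wide intervals. By chromosome, the IDR genes were mir-2214 on III, with 27 microRNA genes, and the other 3 on X, with 74. On X, 3 of 74 (4.05%, 0.844 to 11.4) had an IDR summit within 300 bp, and 2 of the 3 are the mir-8196 copies; the share of all annotated genes on X was 0.681%. On the autosomes it was 1 of 187 (0.535%, 0.0135 to 2.94), against 0.903% of all annotated genes there. The pooled share was 21.6% (12.9 to 32.7) on X, against 28.0% of all annotated genes, and 27.8% (21.5 to 34.8) on the autosomes, against 23.1%.

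None of the well-studied microRNA genes had an IDR summit within 300 bp, and mir-52, described above, was the strongest of them in the pooled list. Of 31 genes in 5 textbook families and a set of single genes, 14 had a pooled summit within 300 bp (45.2%, 27.3 to 64.0), against 26.1% of all microRNA genes and 23.7% of all annotated genes. One in the 1000 bp upstream was found at 23 (74.2%, 55.4 to 88.1), against 42.1% of all microRNA genes and 31.8% of all annotated genes. Both intervals lay above those shares, but the 23 genes had 15 distinct summits, 7 of the genes being the mir-35 cluster at 1 site. The list was also drawn up with earlier results known. Within 300 bp, mir-52 and mir-84 alone of the listed genes had a summit in both replicate lists. The lin-4 and let-7 families act in the timing of larval development. The gene lin-4 had a pooled signal of 8.01 (rank 4180) 130 bp downstream of its 5′ end and 6.84 (rank 3256) in replicate 2, with none within 300 bp in replicate 1. Its paralogue mir-237 had no summit in either window in any list.

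Of the 4 listed genes of the let-7 family, 3 had a pooled summit within 300 bp. The summit of let-7 lay 31 bp upstream of the long annotated gene (5.70, rank 10705), with 4.41 (rank 2035) at the same place in replicate 1. That of mir-84 had 9.87, with 3.83 (rank 2907) in replicate 1 and 4.70 (rank 9644) in replicate 2. The gene mir-241 had 3.98 (rank 22356) within 300 bp and 11.6 (rank 1429) at 689 bp upstream, where replicate 2 had 10.2 (rank 900) at 659 bp and replicate 1 had 6.73 (rank 702) at 434 bp. The fourth listed gene, mir-48, had none in the pooled list. The gene mir-795, which has the same seed but was not listed, had 8.11 (rank 4039) at 117 bp downstream.

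The mir-35 family acts in the embryo, and its genes mir-35 to mir-41 form a cluster on chromosome II inside the opposite-strand gene Y62F5A.9. All 7 took 1 pooled summit, with a signal of 5.02 (rank 14367), which lay 260 bp upstream of mir-35 and 960 bp upstream of mir-41. Replicate 2 had a summit of 3.32 (rank 19515) 225 bp upstream of mir-35, and replicate 1 none in the window. The eighth member, mir-42, had no pooled summit but one of 4.63 (rank 10002) in replicate 2. These counts of genes are therefore counts of 1 site.

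In the mir-51 family all 6 genes had a pooled summit in the 1000 bp upstream and 4 within 300 bp. After mir-52, the highest was mir-53 (7.98, rank 4224), followed by the summit that mir-54, mir-55 and mir-56 share on X (7.30, rank 5526). The mir-58 family is related to the fly microRNA bantam. Of its 4 listed genes, 1 had a pooled summit within 300 bp, mir-81 (5.98, rank 9455), and 3 had one upstream. Of these mir-80 was highest (11.2, rank 1576), with its summit 825 bp upstream. The gene mir-82 had none. Not listed were mir-58.2, which had 3.41 (rank 28315) within 300 bp, and Y73B6A.17 (mir-58c), which had no pooled summit.

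Among the single genes, mir-71, which affects lifespan and lies in an intron of ppfr-1, had the strongest upstream summit (12.4, rank 1230) at 447 bp, with 5.47 (rank 1151) in replicate 1 and 3.57 (rank 17224) in replicate 2. The gene mir-124, known from sensory neurons, had 7.73 (rank 4646) at 509 bp upstream, and mir-228 had 6.59 (rank 7350) at 129 bp upstream. The gene mir-83, which shares the 3p seed of mir-49, had 4.72 (rank 16364) at 295 bp upstream, and mir-34 had 4.80 (rank 15808) at 264 bp downstream. No summit stood in either window of any list at lsy-6, which sets the left and right fates of a taste neuron pair, or at mir-1, which acts in muscle. Outside these families, mir-229 with mir-64, mir-65 and mir-66 shared a summit of 9.34 (rank 2622) and mir-73 with mir-74 one of 9.33 (rank 2632).

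Of the microRNA genes with a pooled summit within 300 bp, a minority had a summit there in both replicates. Of the 68 microRNA genes with a pooled summit within 300 bp, 26 also had one in replicate 1 and 46 in replicate 2. Both replicates had one at 14 and neither at 10. A summit in both need not be the same peak, because any summit in the window was counted. At mir-4934 the offsets from the 5′ end were 151 bp in replicate 2 and -218 bp in replicate 1 (negative upstream). Cut to 11042 peaks each, replicate 1 had 34 genes and replicate 2 had 37, and 13 genes were in both. The same overlaps were not counted over all annotated genes, so they are not read as a trait of microRNA genes. In the strongest 381 peaks, replicate 1 had 3 of the genes and replicate 2 had 4, where the share of all annotated genes was 0.938% and 0.825%. Among the 10 strongest, the ranks were furthest apart at mir-84 (2907 in replicate 1, 9644 in replicate 2), mir-5595 (5168 in replicate 1, 875 in replicate 2) and mir-5549 (1657 in replicate 1, 802 in replicate 2). They were within 17 of each other at mir-2214, mir-52 and mir-8196.1. Of the 10, mir-49, mir-4929 and mir-1829.3, had no replicate 1 summit within 300 bp.

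Octamers found in excess at other SNPC-4 summits were also searched for at microRNA genes. The 2 octamers with the largest excess within 100 bp of the 377 IDR summits without a microRNA gene, against windows 1000 bp to either side, were GCGGAACC and GGGTTCCG, searched on both strands. They overlap each other in the opposite orientation. The first was found at 69 of 377 summits (18.3%) and 0.663% of the flanking windows, and the second at 68 (18.0%) and 0.928%. Within 100 bp of the 5′ end, each was found at 2 of 261 microRNA genes (0.766%), mir-2219 and mir-8196.1, against 0.215% and 0.160% of protein-coding genes. The share of all annotated genes was not computed. Of the 4 microRNA summits in the IDR list, that of mir-8196.1 alone held them, 113 to 105 bp upstream of the hairpin as shown above. The matching stretch of mir-8196.2 held neither.

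A search for TATAAA, the core of the TATA box, was added after these sites had been seen. On either strand it was found in the 50 bp upstream of 11 of 261 microRNA hairpins (4.21%, 2.12 to 7.42), against 12.3% of protein-coding 5′ ends and 5.49% of snoRNA 5′ ends. Among the 4 IDR genes, mir-2214 had it 29 to 24 bp upstream of the hairpin, and mir-8196.1 had its reverse complement, TTTATA, 28 to 23 bp upstream. The stretches of mir-8196.2 and mir-49 held neither in that window. A match in letters is not a measurement of binding.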

How the data were processed

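ChIP-seq peaks came from 2 biological replicates of 1 group. For each peak the authors deposited an interval, a summit and a signal, whose scale is not stated. They gave a list per replicate, a list from the pooled replicates labelled as peaks and background for IDR input, and an IDR-thresholded list. The lists used are on ce11 per the labels, and the ce10 lists were not used. The sources used here name no aligner, peak caller or IDR threshold, and read depth is unknown. Genes were those of Ensembl, and sequences those of the RefSeq genome of WBcel235. Each gene took its strongest summit within 300 bp of the 5′ end and in the 1000 bp upstream. Shares have exact Clopper-Pearson 95% intervals, which count genes only, and genes that share a summit are not independent. No test was run. The text names genes with an IDR summit, the 10 strongest pooled summits within 300 bp, the first 3 outside the IDR list, textbook families and genes whose ranks differ between replicates; other named genes were chosen after their values were seen. The members and lists were chosen with earlier results of these data known. Alternatives were other windows, list lengths, single replicates, intervals in place of summits and merged 5′ ends. The window search was tested on simulated data. Python 3.11.15, pandas 2.3.3, numpy 2.4.6, scipy 1.17.1 and Biopython 1.88 were used.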

Additional observations from a re-analysis of the deposited data

How the results depend on the processing

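The number of microRNA genes with an IDR summit within 300 bp, 4 here, was between 3 and 5 in the 9 alternatives tried; leaving out a replicate gave 3 to 4. The 5 genes with one in the 1000 bp upstream became 3 with the list cut to its stronger peaks by rank and 3 where the peak interval had to overlap the gene, and 4 to 5 with a replicate left out. Shares in the pooled list moved with the window and the list length, which by construction take in fewer or more summits. Within 300 bp, the share of all microRNA genes (26.1%) was 16.5% within 150 bp, 40.2% within 500 bp, 16.5% for upstream summits only, 3.83% with the strongest 3000 peaks, 19.5% by interval and 13.0% to 14.2% with a replicate left out at 11042 peaks. In the window over 300 and up to 1000 bp upstream, added later, it was 28.0%, or 14.6% in replicate 1 and 12.6% in replicate 2 at 11042 peaks each. For genes inside hosts (26.4%) these values were 15.1%, 44.3%, 16.0%, 4.72%, 17.9% and 10.4% to 16.0%. For intergenic genes (25.0%) they were 16.4%, 36.8%, 15.8%, 3.29%, 19.7% and 13.2% to 14.5%. In the 1000 bp upstream, genes inside hosts (50.9%) had 27.4% for 500 bp, 66.0% for 2000 bp, 14.2% with 3000 peaks, 17.9% by interval and 22.6% to 25.5% with a replicate left out; intergenic genes (35.5%) had 24.3%, 56.6%, 5.92%, 19.7% and 18.4% to 22.4%. Without replicate 1 the share inside hosts was above the intergenic one, and without replicate 2 the shares were nearly equal. Merging 5′ ends or counting only same-strand hosts kept each share inside its 95% interval. The same-strand setting moved genes with an opposite-strand host to the intergenic group. In the 1000 bp upstream it gave 45.9% inside and 40.2% intergenic, nearer to each other than 50.9% and 35.5%. No paired analysis was possible because both samples belong to 1 group. No control was analysed here, the signal scale is not stated, and weak peaks shared by few replicates limit what a pooled summit shows.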
